A study of Solanum lycopersicum with 6 samples.

Results

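The flesh of wild-type tomato fruit (pericarp of *Solanum lycopersicum*) was described across genes from the 3 libraries labelled wild type, of 6 libraries in the series. The 3 libraries were chosen by that label, with earlier results of these data known. All 3 were made from total RNA of pericarp at 38 days post anthesis, frozen at harvest, with no treatment named, and the remaining 3 libraries, labelled SlDof1 RNAi, were not analysed here. The labels name no cultivar and do not say whether replicates are separate fruits, plants or pools, so the spread between libraries may be technical. Total expected counts (estimated reads per gene, not scaled) were 9608643, 9836701 and 10002358 in libraries 1 to 3. The libraries listed 21017, 21030 and 20944 genes, and 22620 genes were listed in at least 1 of them.

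Tomato is a climacteric fruit, in which ripening goes along with a burst of the gaseous hormone ethylene. Ethylene is made from S-adenosylmethionine in a pair of steps, by ACC synthase (ACS) and ACC oxidase (ACO), and is bound by receptors that repress the response until the hormone arrives. Ripening tomato pericarp is known for breaking down chlorophyll, building up the red carotenoid lycopene, loosening its cell walls and making aroma volatiles. Most of these steps are run by gene families of which different members serve fruit, leaf, root or flower. The data below give the level of each member as FPKM, the authors' deposited fragment count scaled to transcript length and library size. FPKM is scaled by length and can be compared between genes, but in bulk tissue fewer cells of a type and less RNA per cell cannot be told apart.

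The libraries were not equally alike. Across the 16707 genes at 1 FPKM or more, which are not independent replicates, the correlation of log2(FPKM + 1) was 0.9915 between libraries 2 and 3 and 0.9765 and 0.9755 between library 1 and each of them. The lists of the 100 most abundant genes shared 97 genes between libraries 2 and 3 and 81 between library 1 and either. Library 1 was the farthest from the middle value for 54.2% of genes. The biological coefficient of variation, edgeR's estimate of the spread beyond counting error, was 13.0% over the 3 libraries and 4.45% without library 1, against 16.1% without library 2 and 15.5% without library 3.

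Library 1 also differed in how its FPKM was made: the deposited values divide by the transcript length less 39.0 bases in library 1 and less 56.3 and 58.2 bases in libraries 2 and 3. Among genes at 10 FPKM or more, the median ratio of library 1 to the mean of libraries 2 and 3 was 1.05 under 500 bases, 1.03 at 500 to 1000 bases, 0.992 at 1000 to 2000 bases and 0.988 at 2000 bases and above. The part of these length differences in the gap between libraries was not tested.

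The transcript pool was spread widely, with a steep top. A mean of 1 FPKM or more was reached by 16707 of the 22620 listed genes (73.9%), and 100 FPKM or more by 1466 (6.48%). Only 48 genes reached 1000 FPKM, and these held 18.9% of the summed FPKM. The 100 most abundant genes of a library held 24.4%, 23.9% and 24.3% of its summed FPKM in libraries 1 to 3. The 779, 808 and 773 most abundant genes held 50% of the sum. The median listed transcript length was 1101 bases among genes under 1 FPKM, 1433 bases at 10 to 100 FPKM and 949 bases at 1000 FPKM and above, where it was the lowest of the 5 level classes.

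The 2 most abundant genes have no name in the sources used here. Solyc07g049140.2 lay at 28111, 28009 and 28489 FPKM in libraries 1 to 3, and Solyc04g071610.2 at 23028, 22018 and 21945 FPKM. Solyc07g049140.2 alone took 2.34% to 2.40% of all counts of a library. Both varied little, by factors of 1.02 and 1.05 between the highest and the lowest library.

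Several known ripening genes stood high in the ranking. Gene names come from 232 hand-written pairs of a published name and an identifier, and of these genes 56 (24.1%) reached 100 FPKM, beside 6.48% of all listed genes. The names were chosen largely for known roles in ripening fruit, with earlier results known, so nothing is read from that share. *ACO1* (Solyc07g049530.2), the ACC oxidase of ripening fruit, ranked 3 of all genes, and *E8* (Solyc09g089580.2), a long-used marker of the ethylene response in tomato fruit, ranked 5. *E8* lay at 4792, 4672 and 4551 FPKM, a factor of 1.05 between the extremes. *E4* (Solyc03g111720.2), another ethylene-responsive gene, ranked 17 and was less even, at 1460, 2153 and 2132 FPKM. *PG2a* (Solyc10g080210.1), the polygalacturonase that cuts pectin in ripening fruit, ranked 39, with 1646 FPKM in library 1 and 1044 and 1042 FPKM in libraries 2 and 3. *PL* (Solyc03g111690.2), which encodes a pectin-cutting lyase of softening fruit, ranked 51 and was even, at 935, 1007 and 989 FPKM.

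**Figure D1:**
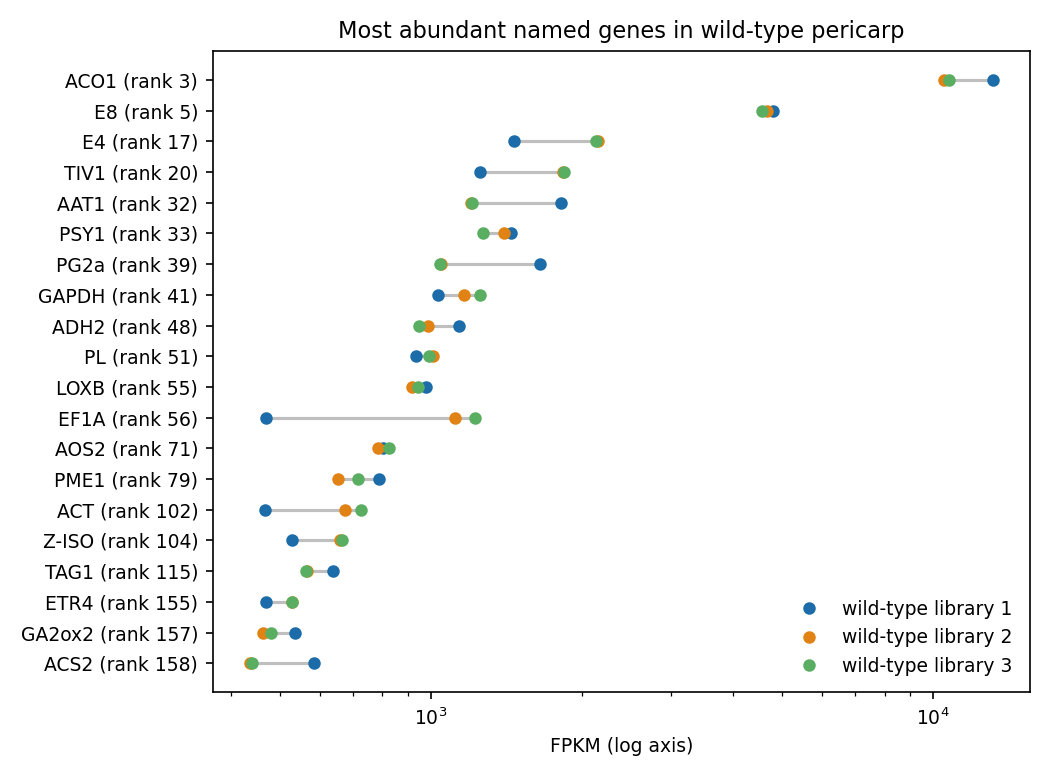
FPKM (log axis) of the 20 most abundant named genes, 1 row per gene with its rank by mean FPKM among all genes; each point is 1 wild-type library and the grey line joins the lowest and the highest. ACO1 stands apart at 10521 to 13127 FPKM, and library 1 is the outlying point for TIV1, AAT1, PG2a and EF1A.

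Several transcripts known from ripening fruit were plentiful, though the gene paired with *EXP1*, the expansin of ripening fruit, lay at 2.81 ± 0.746 FPKM (SD, n = 3). Of the few genes looked up as markers of pollen, ovules and seeds, *TAG1* was abundant and the others were unlisted or near 0. *LAT52*, a pollen gene, was not listed in any of the 3 libraries, nor were *AGL11*, a MADS-box gene of ovules and seed coats, or the seed regulators *ABI3*, *FUS3* and *L1L4*. *ABI5*, the remaining seed regulator, lay at 0.17, 0.16 and 0.41 FPKM. The names of *FUS3*, *L1L4* and *ABI5* could not be checked. *TAG1* (Solyc02g071730.2), looked up beside *AGL11* as a marker of ovules and seed coats, lay at 638, 567 and 565 FPKM. *TAG1* is also one of the MADS-box genes told below, and which tissue its transcripts came from was not tested. A gene that is not listed was taken as a count of 0, which allows up to 3 counts, or 0.300 to 0.312 counts per 1000000 in these libraries; this limit covers counting error only.

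Across 49 families with at least 2 named members, 1 member usually made most of the transcript. The same member led in all 3 libraries in 45 families, and in 43 its lowest library was above the highest library of the runner-up. The leader held at least 50% of the family's summed FPKM in 40 families and at least 90% in 19, with a median share of 76.7%. Some families have only 2 named members, where the leader holds about 50% or more by definition. In 2 families the leader itself was under 1 FPKM. It was at least 10 times the runner-up in 17 families and under 2 times in 10. With 3 libraries, an exact two-sided sign-flip test of leader against runner-up cannot go below p = 0.25, so the ratios are given with their spread and no p. Shares and leaders count only the named members kept after a check of names. That check dropped *ACS5*, *NAC4*, *MC*, *ARF19*, *PHYB1*, *CRY1b*, *TBG1* and *TBG7*, among others. Family members that were dropped or have no name would lower the shares and could change a leader.

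**Figure D2:**
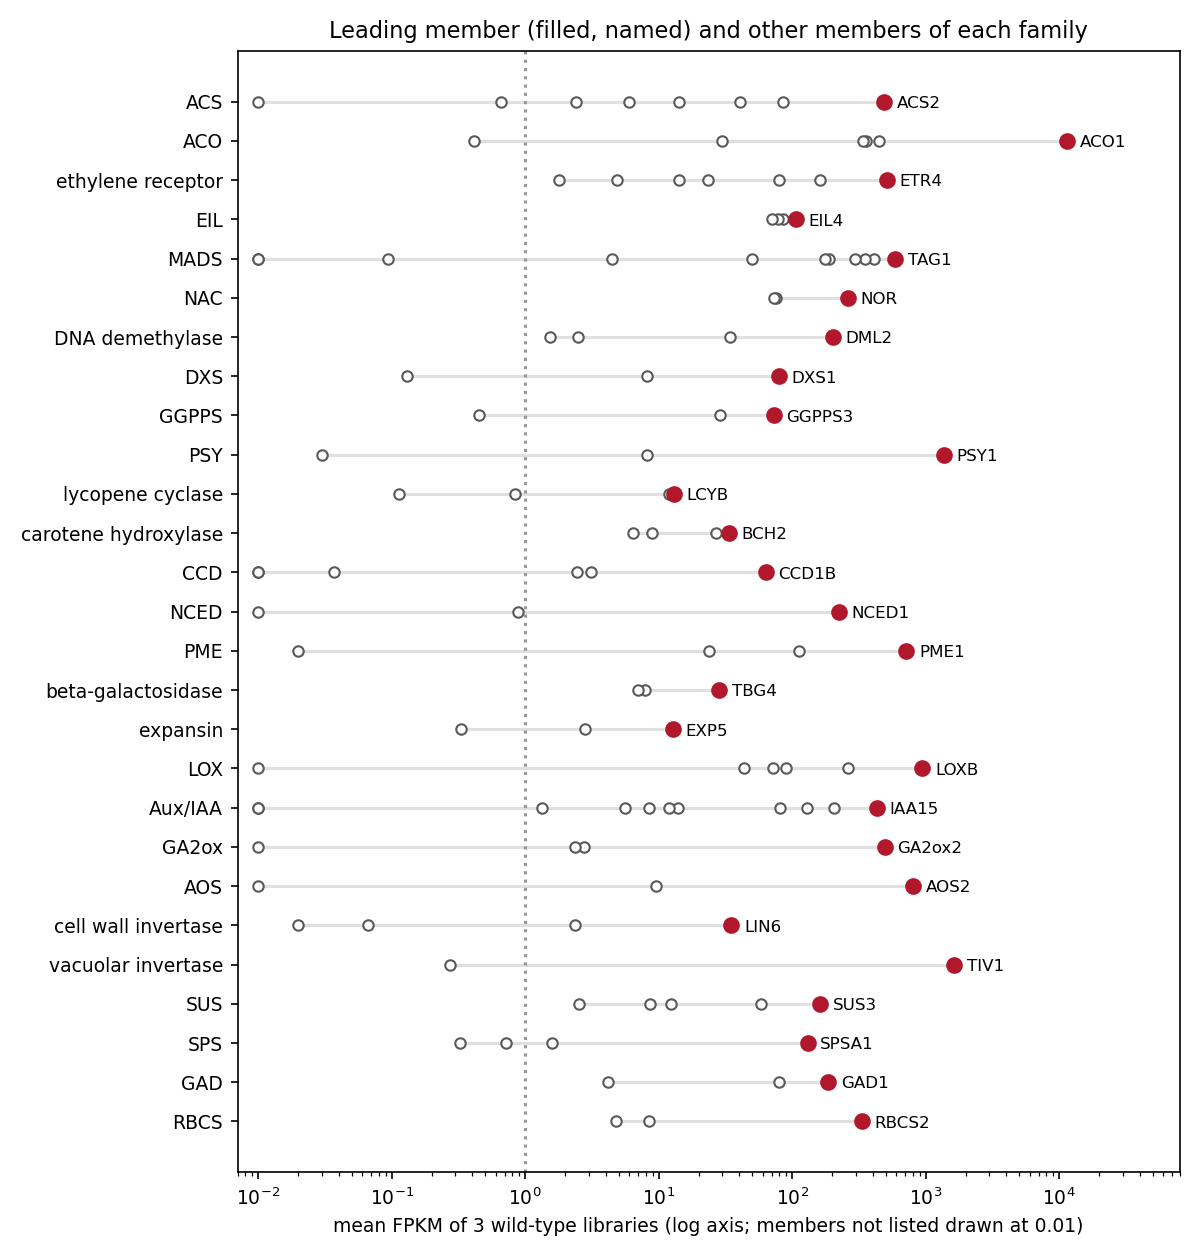
Mean FPKM (log axis) over the 3 wild-type libraries for the members of selected families, 1 row per family; the filled point is the leading member, open points are the others, members not listed are drawn at 0.01 and the dotted line marks 1 FPKM. PSY1, NCED1, TIV1 and GA2ox2 are far to the right of the rest of their families, whereas the 4 EIL members lie together.

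In ethylene synthesis, *ACS2* led the ACC synthases and *ACO1* the ACC oxidases. *ACS2* (Solyc01g095080.2), one of the synthases of ripening fruit, lay at 586, 436 and 440 FPKM, and *ACS4* (Solyc05g050010.2), the other well-known one, at 105, 73.35 and 77.6 FPKM. The ratio of *ACS2* to *ACS4* hardly moved, between 5.59 and 5.94, although both were higher in library 1. *ACS1A* and *ACS6*, which are linked to the ethylene production of unripe fruit, followed at 40.5 ± 10.6 and 14.3 ± 4.68 FPKM (SD, n = 3). *ACS7* was not listed, and *ACS3* lay at 0.66 ± 0.111 FPKM.

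*ACO1* was far above all synthase genes. *ACO1* lay at 13127, 10521 and 10766 FPKM, which is 90.7% ± 0.326 of the family's sum (SD, n = 3). *ACO6*, *ACO5* and *ACO3* formed a second tier at 446 ± 47.4, 359 ± 17.8 and 342 ± 45.1 FPKM, whose ranges over libraries overlapped between *ACO5* and *ACO3*. Summed over named members, the ACO family stood at 12648 ± 1541 FPKM and the ACS family at 636 ± 119 FPKM. The counts of *ACO1* and *ACO3* were fractional in all 3 libraries, as were those of *ACS1A* and *ACS1B*, as counts are when reads are split among similar sequences, and these levels are less certain.

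All 7 named ethylene receptors were above 1 FPKM, over a wide range. *ETR4* (Solyc06g053710.2) led with 469, 529 and 528 FPKM, ahead of *NR* (Solyc09g075440.2, Never-ripe) with 181, 160 and 141 FPKM; both receptors are known to rise in ripening fruit. *ETR7* came next at 79.4 ± 7.21 FPKM, and *ETR1*, *ETR6*, *ETR5* and *ETR2* lay between 23.3 ± 2.69 and 1.80 ± 0.269 FPKM (SD, n = 3). The sum over receptors was even, at 793 ± 13.1 FPKM, and *ETR4* was lowest in library 1 where *NR* and *ETR7* were highest.

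Downstream of the receptors, *EIL4* led the EIL genes by a small margin. The EIL transcription factors, which switch on ethylene-responsive genes, lay close together: *EIL4* at 87.0, 120 and 114 FPKM, *EIL3* at 70.0, 87.6 and 96.5 FPKM, *EIL2* at 78.9 ± 7.13 and *EIL1* at 70.0 ± 6.26 FPKM (SD, n = 3). *EIL4* was the highest in each library, at 1.19 to 1.37 times *EIL3*, and its lowest value was above all values of *EIL2* and *EIL1*. *EIL2* was above *EIL3* in library 1 and below it in libraries 2 and 3, so these were not ranked. *CTR1*, a kinase that holds the pathway off, and *EIN2*, which passes the signal on, lay at 53.1 ± 4.60 and 26.5 ± 2.83 FPKM. *EBF1*, whose F-box protein marks EIL proteins for breakdown, was more abundant than any single EIL gene, at 188, 198 and 223 FPKM.

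Several genes of the MADS-box family, which holds regulators of ripening, were abundant side by side. *TAG1* led at 590 ± 41.6 FPKM (SD, n = 3). *RIN* (Solyc05g012020.2), the MADS-box factor needed for ripening, followed with 530 FPKM in library 1 and 350 and 341 FPKM in libraries 2 and 3. *FUL1*, *FUL2* and *TAGL1*, partners of RIN in fruit, lay at 350 ± 20.6, 188 ± 20.9 and 177 ± 18.2 FPKM, and *TM5*, a SEPALLATA-class gene, at 298 ± 40.8 FPKM. The ranges of *RIN* and *FUL1* overlapped. At the other end *JOINTLESS*, which acts in the pedicel abscission zone, lay at 0.14, 0.14 and 0 FPKM, and *CMB1* and *AGL11* were not listed. The name pairs of these genes were checked only by chromosome and order. Whether *CMB1* is silent or its pair is wrong or its row left out was not tested. *RIN* had fractional counts in all 3 libraries.

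*NOR* (Solyc10g006880.2), a NAC factor needed for ripening, had 293, 250 and 241 FPKM and led *NAC1* and *NOR-like1*, at 76.0 ± 10.8 and 72.5 ± 13.6 FPKM (SD, n = 3), by a factor of 3.31 to 3.61 over the nearer one. *CNR*, an SBP-box factor of ripening, lay at 326, 295 and 215 FPKM, and *AP2a*, a repressor of ethylene synthesis in fruit, at 402, 353 and 318 FPKM. Of the DNA demethylases, *DML2* (Solyc10g083630.1), which removes methylation at ripening genes, led with 211, 215 and 183 FPKM, against 34.4 ± 4.86 FPKM for *DML3*. *DML4* and *DML1* stayed at 2.49 ± 0.285 and 1.54 ± 0.123 FPKM. The DNA methyltransferases lay below *DML2* and *DML3*. The leader *DRM5* had 22.3 ± 0.889 FPKM, *CMT2* 16.8 ± 1.25 FPKM and *MET1*, the maintenance methyltransferase, 4.01 ± 0.295 FPKM.

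Along the carotenoid pathway, levels differed widely between steps. *DXS1* and *GGPPS3*, which supply plastid isoprenoid precursors, led their families at 79.4 ± 8.73 and 72.7 ± 5.37 FPKM (SD, n = 3), ahead of *DXS3* at 8.16 ± 0.355 and *GGPPS2* at 28.9 ± 3.48 FPKM. *PSY1* (Solyc03g031860.2), the phytoene synthase of fruit, lay at 1441, 1397 and 1269 FPKM and made 99.4% of its family. *PSY2*, the form of green tissue, had 7.21, 8.37 and 8.82 FPKM, so that *PSY1* was 144 to 200 times as high. Of the steps from phytoene to lycopene, *Z-ISO* was the most abundant at 529, 660 and 665 FPKM, whereas *PDS*, *ZDS* and *CRTISO* lay at 45.2 ± 4.36, 86.9 ± 4.44 and 77.1 ± 3.57 FPKM.

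Beyond lycopene, the cyclase genes lay below *PDS*, *ZDS* and *CRTISO*. The cyclase genes *LCYB* (11.9, 13.7 and 13.7 FPKM) and *CYCB* (12.3, 11.5 and 12.0 FPKM) could not be ranked, as *CYCB* was ahead in library 1 and *LCYB* in libraries 2 and 3. *LCYE*, the cyclase of the lutein branch, lay at 0.27, 0 and 0.07 FPKM. The hydroxylase genes *BCH2* and *BCH1* had 33.8 ± 3.15 and 27.1 ± 2.79 FPKM (SD, n = 3). Among genes that cleave carotenoids, *CCD1B* led at 63.4 ± 3.64 FPKM, *CCD4B* had 3.10 ± 0.496 FPKM and *CCD1A* 2.44 ± 0.566 FPKM, and *CCD7* and *CCD4A* were not listed. *ZEP*, the zeaxanthin epoxidase gene, had 74.1 ± 1.91 FPKM. *NCED1*, which makes the precursor of abscisic acid, stood at 231, 221 and 220 FPKM, with *NCED2* at 0.88 ± 0.202 FPKM and *NCED3* not listed.

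Cell wall families were uneven in the level of their leaders. *PME1* (Solyc07g064170.2), a pectin methylesterase of fruit, led at 786, 651 and 715 FPKM, ahead of *PMEU1* at 102, 112 and 124 FPKM; its counts were fractional, as were those of its neighbour *PME2* at 23.9 ± 3.4 FPKM (SD, n = 3). The β-galactosidase gene *TBG4* and the mannanase gene *MAN4a* lay at 28.4 ± 1.46 and 49.5 ± 6.68 FPKM, and *TBG6* followed *TBG4* at 7.83 ± 0.924 FPKM. The identifier paired with *EXP1* (Solyc06g051800.2), known as the expansin of ripening fruit, had only 3.53, 2.86 and 2.04 FPKM, below *EXP5* at 10.8, 13.7 and 14.2 FPKM. Of the cellulase genes, *CEL1* led at 3.67 ± 0.246 FPKM and *CEL2* was at 6, 8 and 1 counts, or 0.303 ± 0.218 FPKM. These low values rest on name pairs that were checked only by chromosome and order.

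Among the lipoxygenases and other genes told here for aroma, several transcripts were plentiful. Which of the lipoxygenases serve volatiles was not tested. *LOXB* (Solyc01g099190.2), a fruit lipoxygenase, led with 978, 917 and 942 FPKM, and *LOXC* (Solyc01g006540.2), the lipoxygenase needed for C6 volatiles, had 286, 251 and 242 FPKM. *LOXD*, *LOXA* and *LOXE* lay between 43.9 ± 1.05 and 90.3 ± 5.84 FPKM (SD, n = 3), and *LOXF* was not listed. *ADH2*, an alcohol dehydrogenase of ripe fruit, stood at 1139, 985 and 947 FPKM and *HPL*, the hydroperoxide lyase, at 106 ± 10.8 FPKM. *AAT1* (Solyc08g005770.2), the acyltransferase that makes acetate esters, was at 1817 FPKM in library 1 and 1203 and 1208 FPKM in the others, rank 32. From amino acids, *BCAT1* led *BCAT2* with 106 ± 19.3 against 0.117 ± 0.132 FPKM, and *AADC1A* (29.2 ± 5.87 FPKM) led *AADC1B* (13.6 ± 2.95 FPKM) by a steady factor of 2.12 to 2.20.

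Hormone families other than ethylene also had leading genes, with 98.8% of the family's sum for *AOS2* but 68.3% for *JAZ1* and 48.0% for *IAA15*. For gibberellin, the synthesis families were low: *GA20ox3* had 4.60 ± 0.572 FPKM (SD, n = 3), *GA20ox2* 0.133 ± 0.0924 FPKM, *GA3ox1* 0.157 ± 0.0577 FPKM, and *GA20ox1* and *GA3ox2* were not listed. *GA2ox2* (Solyc07g056670.2), of the family that inactivates gibberellin, stood at 535, 462 and 481 FPKM, 99.0% of its family's sum, with *GA2ox5* next at 2.74 ± 0.168 FPKM. The gibberellin receptor *GID1b-1* led at 115 ± 15.8 FPKM, ahead of *GID1b-2* at 47.6 ± 2.59 FPKM. For jasmonate, *AOS2* (Solyc11g069800.1), an allene oxide synthase, had 802, 786 and 825 FPKM, and *AOS1* 9.48 ± 0.496 FPKM. *JAZ1* led the jasmonate repressors at 177 ± 15.8 FPKM, ahead of *JAZ3* at 46.6 ± 5.05 FPKM.

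Of the auxin repressors, *IAA15* led with 547, 382 and 358 FPKM and *IAA3* followed with 268, 176 and 176 FPKM, whereas *IAA9* (96.9, 142 and 146 FPKM) ran the opposite way across libraries. *IAA14* and *IAA19* were not listed.

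Sugar genes showed some of the sharpest splits. *TIV1* (Solyc03g083910.2), the vacuolar invertase that cleaves stored sucrose, ranked 20 at 1254, 1832 and 1838 FPKM, and *VI2* lay at 0.273 ± 0.0289 FPKM (SD, n = 3). *VIF*, a vacuolar invertase inhibitor, had the reverse order, with 134 FPKM in library 1 and 87.3 and 90.1 FPKM in libraries 2 and 3. Of the cell wall invertases, *LIN6* stood at 35.1 ± 1.12 FPKM and *LIN5*, the form of young fruit and flowers, at 2.36 ± 0.650 FPKM. *SUS3* led *SUS1* among the sucrose synthases, at 162 ± 6.47 against 58.7 ± 3.18 FPKM. *SPSA1* led *SPSA2* among the sucrose-phosphate synthases, at 131 ± 3.77 against 1.59 ± 0.232 FPKM. Of the large subunits of ADP-glucose pyrophosphorylase, an enzyme of starch synthesis, *AGPL2* had 26.3 ± 0.935 FPKM and *AGPL1* 0.2 ± 0.1 FPKM.

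Genes of γ-aminobutyrate (GABA) and ascorbate, both plentiful in tomato fruit, had clear leaders, some with small margins. *GAD1*, a glutamate decarboxylase, had 184, 191 and 186 FPKM and *GAD2* 79.3 ± 7.58 FPKM (SD, n = 3). The GABA transaminase *GABAT1* stood at 356 ± 40.9 FPKM, 95.1% of its family, ahead of *GABAT3* at 13.5 ± 2.16 FPKM. *GGP1* exceeded *GGP2* by 2.03 to 2.48 times and *GME1* exceeded *GME2* by 1.44 to 1.73 times; these enzymes make ascorbate precursors.

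Transcripts of some photosynthesis genes were present at 38 days, the only stage measured. *RBCS2*, a small subunit of Rubisco, lay at 332, 318 and 350 FPKM, whereas *RBCS1* and *RBCS3A* lay at 8.45 ± 2.47 and 4.8 ± 1.17 FPKM (SD, n = 3). *RCA1*, a Rubisco activase, had 105, 159 and 168 FPKM, and *RCA2* 10.7 ± 0.191 FPKM. *SGR1*, which drives chlorophyll loss, stood at 404, 322 and 335 FPKM. The chloroplast regulators *GLK1* and *GLK2* were both near 0, at 0, 0.44 and 0.25 FPKM and at 0.37, 0.75 and 0 FPKM.

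The light receptor genes lay at means of 25.8 FPKM and below, though *PHYA* and *CRY2* stood above 69.7% and 75.4% of listed genes. Of the phytochromes kept after the name check, *PHYA* led at 19.5 ± 0.683 FPKM (SD, n = 3). *PHYB2* followed at 8.93 ± 0.673, *PHYF* at 4.86 ± 0.167 and *PHYE* at 0.817 ± 0.169 FPKM. *PHYB1* and *CRY1b* failed that check and were left out, so the order holds only for the members kept. Of the cryptochromes, *CRY2* (29.65, 24.6 and 23.1 FPKM) could not be told from *CRY1a* (22.7, 24.5 and 23.7 FPKM), and *CRY3* was lower, at 8.80 ± 1.09 FPKM. The leader also changed between libraries for *HSFA2* and *HSFA3*, heat shock factors at 38.1 ± 5.72 and 37.2 ± 7.15 FPKM. The PIF genes *PIF4* and *PIF3*, of light signalling, had 12.8 ± 1.58 and 11.2 ± 0.736 FPKM. Of the flavonoid genes, the chalcone synthase *CHS1* led *CHS2* with 145, 209 and 203 FPKM against 49.7 ± 4.77 FPKM. *MYB12*, an activator of flavonoid genes, lay at 16.47, 10.98 and 11.81 FPKM. The triterpene synthase genes *TTS1* and *TTS2*, of cuticular wax, had 1.15 ± 0.03 and 0.230 ± 0.0985 FPKM.

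Of the 232 named genes, 19 were not listed in any of the 3 libraries. Of the 213 listed ones, 34 had a mean under 1 FPKM, beside 26.1% of all 22620 listed genes. The 19 include *SHN3*, a regulator of cuticle genes, and *GAME9*, a regulator of glycoalkaloid genes, beside those named above, *LOXF*, *AOS3* and *GA2ox1*. Of the other cuticle genes, 3 were below 1 FPKM: *CD1* and *CD3* were listed in library 2 alone, at 0.1 and 0.25 FPKM, and *GPAT6* had 0.353 ± 0.146 FPKM (SD, n = 3), whereas *CER6*, of wax synthesis, had 37.5 ± 5.98 FPKM and *CD2*, a homeodomain regulator, 24.0 ± 2.61 FPKM. Of the glycoalkaloid genes, *GAME25* led *GAME1*, at 14.7 ± 2.28 against 3.06 ± 0.437 FPKM. Fractional counts were found in at least 1 library for 15 of the 213 listed named genes, among them *LOXB*, *LOXE*, *EIL1*, *EIL4* and *AADC1B*. Rows can be missing for reasons other than a lack of reads, which was not tested. Over all genes, 19506 were listed in all 3 libraries, 1359 in 2 and 1755 in 1, the last with a median of 0.17 FPKM where listed.

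**Figure D3:**
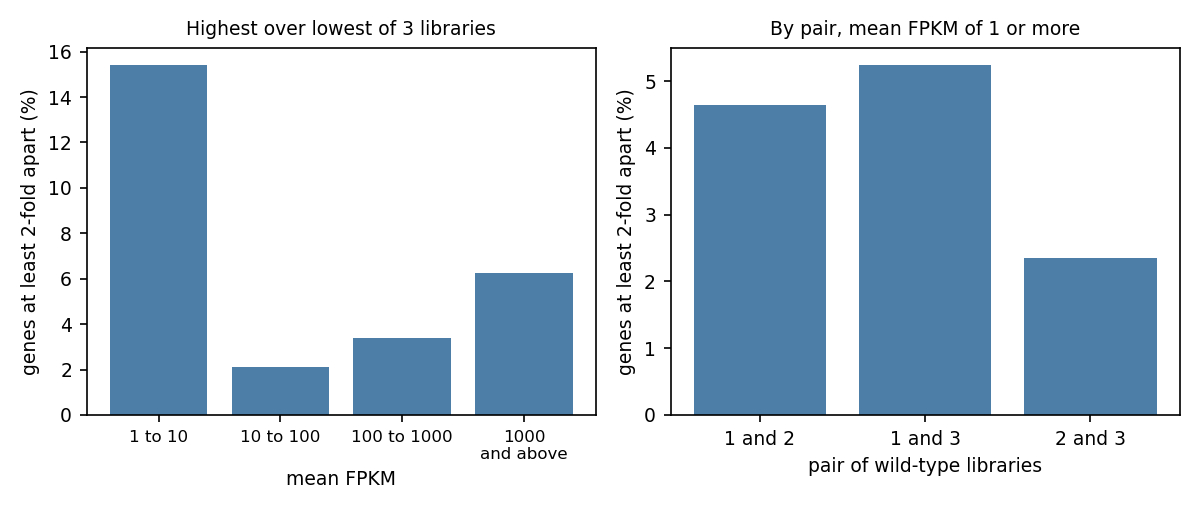
Percent of genes whose FPKM differed at least 2-fold between wild-type libraries, on the left by mean FPKM (highest over lowest of 3 libraries) and on the right by pair of libraries for genes at 1 FPKM or more. The share is 15.4% at 1 to 10 FPKM and 2.13% at 10 to 100 FPKM, and 2.35% between libraries 2 and 3 against 4.64% and 5.24% for the pairs with library 1.

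A difference of at least 2-fold between the highest and the lowest library was found for 1271 of 16707 genes at 1 FPKM or more (7.61%). It was found for 354 of 16650 genes without library 1, 862 of 16685 without library 2 and 785 of 16769 without library 3. Leaving out any library lowers the count in part because fewer libraries are compared. Over all 3 libraries the share was 15.4% among genes at 1 to 10 FPKM and 2.13% at 10 to 100 FPKM. It was 6.25% at 1000 FPKM and above, where it stands for 3 genes of 48. Short transcripts varied most, but at the same FPKM they hold fewer counts, and the part of counting error was not tested. Of the genes at 10 FPKM or more, 14.2% of those under 500 bases differed at least 2-fold, against 0.164% of those of 2000 bases and above. Among genes listed in all 3 libraries at a mean of 10 FPKM or more, the widest ranges belonged to the unnamed genes Solyc11g010390.1, at 0.54, 16.2 and 20.1 FPKM, and Solyc12g008820.1, at 1.05, 33.3 and 33.0 FPKM, both low in library 1 and with listed lengths of 420 and 333 bases. In library 1 they rested on 2 and 3 counts.

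Of the 179 named genes at 1 FPKM or more, 3 differed at least 2-fold, beside 7.61% of all genes. *EF1A* (Solyc06g005060.2), an elongation factor gene often used as a reference, had 469, 1114 and 1222 FPKM. *CIF1*, a cell wall invertase inhibitor, rested on 4, 10 and 9 counts. Both were lowest in library 1, and the counts of *EF1A* were fractional.

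Reference genes were not equally steady. The actin gene *ACT* had 467, 672 and 724 FPKM and *GAPDH* 1034, 1161 and 1252 FPKM, both lowest in library 1. *CAC*, a clathrin adaptor gene proposed as a tomato reference, had 24.3, 25.1 and 23.0 FPKM, a factor of 1.09 between the extremes. *TIP41* and *SAND* differed by factors of 1.20 and 1.29. The median factor over all genes at 1 FPKM or more was 1.26.

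**Figure D4:**
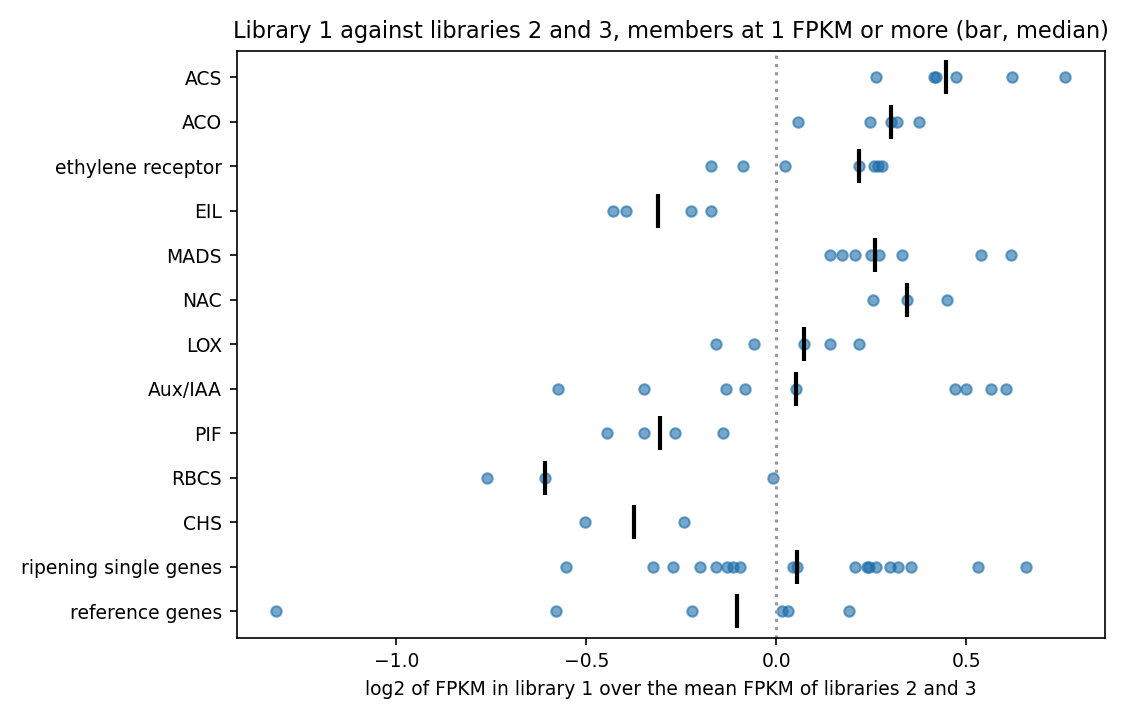
Log2 of the FPKM in library 1 over the mean FPKM of libraries 2 and 3, for members at 1 FPKM or more of selected lists; each point is 1 gene and the bar is the median of its list. The 6 ACS and 8 MADS members lie to the right of 0 and the 4 EIL and 4 PIF members to the left.

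In some families library 1 was the highest or the lowest of the 3 libraries for every member at 1 FPKM or more. Library 1 was the highest of the 3 libraries for 6 of 6 ACS members, 8 of 8 MADS members and 3 of 3 NAC members at 1 FPKM or more, where it was highest for 42.3% of all genes. The median ratio of library 1 to the mean of libraries 2 and 3 was 1.36 for ACS, 1.20 for MADS and 1.27 for NAC genes. Library 1 was the lowest for 4 of 4 EIL and 4 of 4 PIF (light-signalling factors) members, where it was lowest for 39.1% of all genes. The median ratios were 0.808 for EIL and 0.809 for PIF genes. The library farthest from the middle value was library 2 for all 4 PIF genes and a MADS gene, and library 3 for *EIL2*. Over all genes at 1 FPKM or more the median ratio was 1.01. These families were picked out after their values were seen, members of a family were not tested as a group, and with a single library apart no p can be given.

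Single ripening genes lay on both sides in that library. *PG2a*, *AAT1* and *VIF* were 1.58, 1.51 and 1.52 times as high there as in the mean of the other 2 libraries, and *E4*, *TIV1* and *Z-ISO* were at 0.682, 0.683 and 0.798 of it. *E8*, *PSY1*, *PL* and *LOXB* stayed within 0.937 to 1.08. Of the 19 genes listed as single ripening genes, library 1 was the highest for 11 and the lowest for 8. Over all genes at 1 FPKM or more it was highest for 42.3% and lowest for 39.1%, and nothing is read from the counts. The 19 do not include *AAT1*, *VIF*, *TIV1*, *PSY1* and *LOXB*, which were listed with their families.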

How the data were processed

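The deposited files give, per the file headers, a transcript length, an expected count and an FPKM value per gene, with 1 file per library. RNA extraction used an SDS-phenol method, per the labels' protocols. For the aligner, counter, strand setting and genome build: not given in the sources used here. Among the authors' deposited expected counts, 94.5% to 94.9% were whole within 0.005. A fit over genes with at least 200 counts showed that the authors' FPKM divides by the length less a constant per library. Genes that a file does not list were taken as 0 there. FPKM was used as deposited, with mean and SD over 3 libraries. The choice of the wild-type libraries, the gene names and the lists was made with earlier results of these data known.

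The files name no genes. Of 242 hand-written pairs of name and Solyc identifier, 196 had a RefSeq gene (assembly SLM_r2.1) of that name on the same chromosome and in order within 2 megabases, 13 of them through another symbol chosen by hand. Another 36 had no RefSeq gene of that name and are unchecked (among those printed *NR*, *DXS3*, *JAZ1*, *BCAT1*, *BCAT2*, *NCED3*, *CCD4A*, *CCD4B*, *IAA14*, *RCA1*, *RCA2*, *SPSA2*, *HSFA2*, the PIF genes, *VI2*, *EF1A*, *SAND*, *TIP41*, *CD3*, *GAME9*, *GAME25*, *ABI5*, *FUS3* and *L1L4*), and 10 lay elsewhere and were left out. The 10 left out were *AAT2*, *ACS5*, *ARF19*, *CRY1b*, *MC*, *NAC4*, *PHYB1*, *TBG1*, *TBG7* and *UBI3*. RefSeq positions served for this check alone and are not printed.

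In each family the text names the leader and the runner-up by mean FPKM, or more members where the family is told in full, the 20 most abundant named genes, unlisted members, markers, members at least 2-fold apart, and of unnamed genes the 2 most abundant and the 2 with the widest range at 10 FPKM or more; any other gene was picked with its values in view. Levels within 1 family are not reported here. Dispersion came from edgeR 4.0.16 (R 4.3.3) on rounded expected counts, with an intercept alone, filterByExpr at its minimum count of 10 and minimum total of 15 (15875 genes kept) and TMM factors of 0.98 to 1.017. Python 3.11.15, pandas 2.3.3 and matplotlib 3.10.9 were used for the rest. Alternatives were DESeq2 1.42.0 size factors, other level cuts, TPM, counts in place of FPKM, and leaving out each library.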

Additional observations from a re-analysis of the deposited data

How the results depend on the processing

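Genes at or above the level bound numbered 15158 at 2 FPKM and 18102 at 0.5 FPKM, and 16650 to 16769 at 1 FPKM with a library left out, and the count of families with a steady leader was 43 of 49 by counts, 37 of 40 where the runner-up reached 1 FPKM, 40 of 44 with placed names alone and 46 to 47 of 49 with a library left out. The 100 most abundant genes held 20.7% of expected counts against 24.2% of FPKM, and 24.1% to 24.4% of FPKM with a library left out. Genes at least 2-fold apart numbered 405 of 12590 at a mean of 5 FPKM or more, 1271 by TMM-scaled CPM (1193 of them the same genes as by FPKM) and 354 to 862 with a library left out, where fewer libraries are compared. The biological coefficient of variation was 4.45% to 16.1% with a library left out and 13.0% with DESeq2 size factors. Unlisted named genes numbered 28 under 3 counts and 20 to 21 with a library left out. The log2 ratio of leader to runner-up turned round by counts for *GLK2* over *GLK1* (-0.47), *CRY2* over *CRY1a* (-0.26), *PIF4* over *PIF3* (-0.38) and *HSFA2* over *HSFA3* (-0.67), where length is not divided out, and with a library left out for *GLK2* (-0.58 to 1.44), *CRY2* (-0.016 to 0.20) and *HSFA2* (-0.012 to 0.083), below 0 without library 1; for the 45 other families it kept its sign under these alternatives. No paired analysis was possible because only the wild-type group was described and no test between groups was made. Counts under about 10 limit the order of low members, and the depth gives a floor of 3 counts for unlisted genes.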
